A study of Mus musculus with 2 samples.

Results

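The small leucine-rich proteoglycans (SLRPs) are secreted matrix proteins built around a chain of leucine-rich repeats, and 10 of their genes were taken by name from the 28380 genes counted in either library: Dcn, Bgn, Aspn, Fmod, Lum, Prelp, Omd, Epyc, Ogn and Podn. They were listed by name and not by a threshold on a measured value. They were read in non-haematopoietic cells of femur and tibia from C57BL/6 mice at postnatal day 30. Cells were captured on the BD Rhapsody system, which tags every captured RNA molecule with a unique molecular identifier (UMI), and the libraries were sequenced on an Illumina instrument. The Control library came from mice of genotype Dach1OE +/f and the Dach1OE library from mice labelled Apj CreERT2 - Dach1OE +/f. Both groups received tamoxifen and both held male and female animals. Apj (Aplnr) drives the inducible Cre in endothelial cells, so the Dach1 transgene is aimed at endothelial and not at skeletal cells. The methods describe Cre-negative littermates as controls and a pair of mice pooled per library, and the epiphysis was detached before digestion, so growth plate cells were those left on the shaft.

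Each group was 1 library without a replicate, so differences carry no p-value. The libraries held 28720 Control and 32028 Dach1OE cells with 143986818 and 166999989 UMIs, of which 26466 and 29317 cells were kept. The libraries shared 1049 cell indices, or 3.65% of Control and 3.28% of Dach1OE cells. Levels are UMIs of a cell class summed over its cells and divided by all UMIs of that class, as CPM, and brackets after a level or a ratio hold its 95% counting interval, which covers counting error and not the spread between animals. Dach1 itself stood at 5.04 CPM in endothelial-like cells of Control and at 204 CPM in those of Dach1OE, at 4.78 and 18.4 CPM in mural-like cells, at 3.81 and 3.89 CPM in osteoblast-like cells, and, on 34 and 27 UMIs, at 4.52 and 9.22 CPM in dpMSC-like cells. A total of 20487 kept cells fell into 13 skeletal and fibroblast classes, 10092 of them in Control and 10395 in Dach1OE.

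The classes were named from markers that hold none of the 10 genes, and the 10 genes were left out of the clustering. Bglap, which encodes osteocalcin, stood at 17444 CPM in osteoblast-like cells of Control and 14909 CPM in those of Dach1OE. Dmp1 marked the osteocyte-like cells with 3891 and 3314 CPM, although Mepe was at only 9.84 and 10.4 CPM and Sost at 33.6 and 72.5 CPM there. Wif1 marked the metaphyseal stromal (mpMSC)-like class, Adipoq and Lepr the diaphyseal stromal (dpMSC)-like class, Mmp9 the septoclast-like class, Clec3b the fibroblast-like class and Tnmd with Scx the tendon-like class. In the growth plate, Ucma marked upper chondrocyte-like cells, Mki67 proliferating chondrocyte-like cells, Ihh prehypertrophic-like cells and Col10a1 hypertrophic-like cells, beside a chondrocyte-like class without such a zone marker. A cluster of 272 cells in each library led by Cdh15 met a bone marker list. Its leading genes held more markers of another type than of bone types, so it is called the Cdh15-led cluster.

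SLRPs bind along collagen fibrils and set their thickness and spacing, and several also hold growth factors of the TGF-β family near the cell. By their protein structure Dcn (decorin), Bgn (biglycan) and Aspn (asporin) form class I, Fmod (fibromodulin), Lum (lumican), Prelp and Omd (osteomodulin) form class II, Epyc (epiphycan) and Ogn (osteoglycin, also called mimecan) form class III, and Podn (podocan) stands in a class of its own. Decorin and biglycan carry chondroitin or dermatan sulphate chains and are abundant in bone, tendon and skin. Fibromodulin and lumican carry keratan sulphate and compete for sites on collagen, osteomodulin is known from mineralizing bone matrix, and epiphycan is known from growth cartilage.

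Most of the genes lie in small runs on a chromosome (GRCm38, GENCODE vM21). Dcn, at chr10:97479609-97518143, was followed on the same strand by Lum at chr10:97565128-97572703, by Kera and by Epyc at chr10:97644068-97682454. Aspn at chr13:49544443-49567565, Omd at chr13:49582462-49592822 and Ogn at chr13:49608046-49624501 stood in a row on the plus strand with gaps of 14.9 and 15.2 kb, all within the span of Cenpp on the minus strand. Prelp at chr1:133910304-133921414 on the minus strand and Fmod at chr1:134037254-134048277 on the plus strand pointed away from each other across 115.8 kb, and Bgn lay alone at chrX:73483602-73495933. Podn, at chr4:108014791-108096445, overlapped Scp2 on the same strand. Intronic reads were counted and the use of strand is not stated in the sources used here, so reads of overlapping genes cannot be told apart.

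The promoter windows of the 3 neighbours on chromosome 13 and of the 3 genes that shared the growth plate are shown because members of each set are compared below. They are RefSeq windows of 300 bases on GRCm38.p6, written 5′ to 3′ on the strand of the gene, and 8 of the 10 genes had one. Aspn lies at chr13:49544193-49544492 (plus), Omd at chr13:49582212-49582511 (plus), Ogn at chr13:49607765-49608064 (plus), Fmod at chr1:134037004-134037303 (plus), Prelp at chr1:133921352-133921651 (minus) and the first of the 2 Epyc windows at chr10:97643818-97644117 (plus). Capitals mark matches on either strand to the RUNX motif TGTGGT, to the SOX motif ACAAAG, to the AP-1 motif TGANTCA or to TATAAA, the core of a TATA box.
Aspn: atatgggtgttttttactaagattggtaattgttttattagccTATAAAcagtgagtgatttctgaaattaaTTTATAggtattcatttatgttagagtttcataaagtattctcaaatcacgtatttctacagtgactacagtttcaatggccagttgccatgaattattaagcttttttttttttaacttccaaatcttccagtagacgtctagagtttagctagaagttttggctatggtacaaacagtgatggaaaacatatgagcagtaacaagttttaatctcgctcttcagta
Omd: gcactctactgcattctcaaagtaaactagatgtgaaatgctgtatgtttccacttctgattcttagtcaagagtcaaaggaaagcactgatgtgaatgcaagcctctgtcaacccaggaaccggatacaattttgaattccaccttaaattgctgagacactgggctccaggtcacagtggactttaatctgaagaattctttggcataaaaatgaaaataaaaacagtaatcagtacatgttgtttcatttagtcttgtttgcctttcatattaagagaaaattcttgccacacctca
Ogn: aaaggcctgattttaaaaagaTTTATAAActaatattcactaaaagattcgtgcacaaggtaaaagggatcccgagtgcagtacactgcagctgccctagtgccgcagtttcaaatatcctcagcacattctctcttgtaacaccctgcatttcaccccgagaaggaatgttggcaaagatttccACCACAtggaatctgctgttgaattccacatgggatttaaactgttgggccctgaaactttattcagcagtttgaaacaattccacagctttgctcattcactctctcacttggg
Fmod: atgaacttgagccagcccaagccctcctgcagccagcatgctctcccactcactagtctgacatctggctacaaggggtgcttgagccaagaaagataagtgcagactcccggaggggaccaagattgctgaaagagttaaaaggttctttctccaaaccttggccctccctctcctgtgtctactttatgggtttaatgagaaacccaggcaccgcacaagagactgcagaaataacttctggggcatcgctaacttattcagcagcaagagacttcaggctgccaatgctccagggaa
Prelp: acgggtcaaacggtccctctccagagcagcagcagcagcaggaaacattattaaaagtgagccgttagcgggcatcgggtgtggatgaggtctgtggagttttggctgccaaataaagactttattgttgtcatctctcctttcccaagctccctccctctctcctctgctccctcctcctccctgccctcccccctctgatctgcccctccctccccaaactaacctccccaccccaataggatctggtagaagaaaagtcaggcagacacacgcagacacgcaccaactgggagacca
Epyc: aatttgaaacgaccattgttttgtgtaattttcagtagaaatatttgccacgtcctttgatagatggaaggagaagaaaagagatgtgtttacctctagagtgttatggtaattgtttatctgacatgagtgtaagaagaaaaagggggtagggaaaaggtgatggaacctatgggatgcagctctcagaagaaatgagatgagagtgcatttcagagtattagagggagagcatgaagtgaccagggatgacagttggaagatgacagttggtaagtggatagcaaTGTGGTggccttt

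The Aspn window held 2 matches to TATAAA, the Ogn window held 1 match to TGTGGT and 2 overlapping matches to TATAAA, and the Epyc window held 1 match to TGTGGT. The windows of Omd, Fmod and Prelp held none of the 4 letter strings. Over 32851 promoter windows, 16.8% held TGTGGT, 18.7% ACAAAG, 7.81% TGANTCA and 13.6% TATAAA, so single matches of this kind are common. The chromosome 13 neighbours differed in base composition, with 31% G and C in the Aspn window, 37.7% in the Omd window and 42.3% in the Ogn window.

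The 10 genes fell into clearly different patterns over the 13 classes, and each pattern was much the same in both libraries. The rank correlation of the class levels between libraries, a description over 13 classes, lay between 0.86 for Podn and 0.99 for Dcn and Prelp. Bgn was the evenest member, with its highest class 2.78-fold above its lowest in Control and 3.35-fold in Dach1OE. Several other members had their lowest classes at or under the level of haematopoietic-like cells, which should lack these genes, so their spread is given by how many of the 13 classes stood above that level, with intervals that did not meet. Bgn did so in 13 classes of each library, Lum in 13 of Control and 12 of Dach1OE, and Omd in 12 of each. Fmod did so in 11 and 9 classes, Dcn in 10 and 9, and Ogn in 10 of each. Prelp with 8, Epyc with 7, Aspn with 5 in Control and 6 in Dach1OE, and Podn with 4 were limited to fewer classes.

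**Figure D1:**
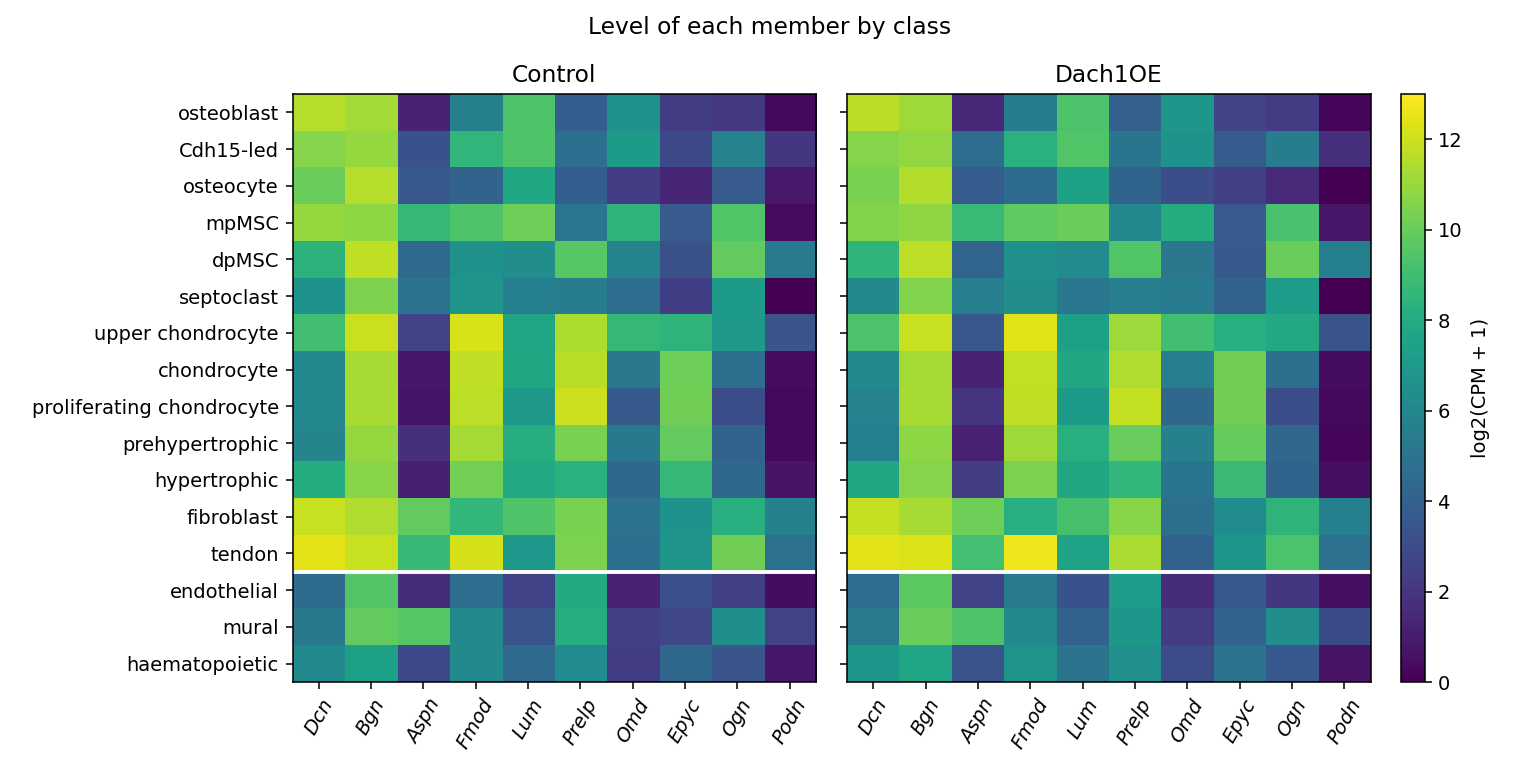
Level of the 10 genes (columns) in each class (lines of the grid), with Control left and Dach1OE right, as log2(CPM + 1) on a common colour scale; each name stands for the cells like that type, and classes under the white line are vascular and haematopoietic. Bgn is bright in all 13 skeletal and fibroblast classes, Fmod, Prelp and Epyc are bright in the cartilage classes, and Aspn is bright in the fibroblast, tendon, mpMSC and mural classes.

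Decorin, the class I member best known from fibrous tissue and bone, was highest in tendon-like cells at 5574 CPM (5459 to 5691) in Control and 5484 CPM (5330.1 to 5641) in Dach1OE. Fibroblast-like cells came next with 3894 CPM (3819.7 to 3970.3) and 3762 CPM (3688 to 3837), and osteoblast-like cells after them with 2965 CPM (2931 to 2999) and 3197 CPM (3168 to 3227). These 3 classes kept that order in both libraries and their intervals did not meet. In mpMSC-like cells Dcn stood at 1991 CPM (1942 to 2039.9) in Control and 1552 CPM (1507 to 1599) in Dach1OE, where it met the interval of the Cdh15-led cluster at 1572 CPM. The dpMSC-like cells were far lower, at 337 CPM (324 to 350.3) and 363 CPM (342 to 386). Among the cartilage classes the gene was highest at both ends. It stood at 538 CPM (502 to 576) and 672 CPM (636 to 708) in upper chondrocyte-like cells and 268 CPM (250.1 to 286) and 217 CPM (206 to 229) in hypertrophic-like cells. The chondrocyte-like class between them held 71.6 and 68.3 CPM. Within it, the cluster led by R3hdml held 221 and 190 CPM, near the 248 and 195 CPM of the hypertrophic-like cluster led by Col10a1. The chondrocyte-like cluster led by Rlbp1 held 51.2 and 50.3 CPM and that led by Hspa1a 36.8 and 41.2 CPM. Haematopoietic-like cells, which should lack the gene and take up free RNA of other cells in such data, held 74.2 CPM (70.0 to 78.5) and 116 CPM (111 to 121). The chondrocyte-like, proliferating and prehypertrophic-like classes were not above that level in either library. It is a reference and not a measured background for deeper cells. In Dach1OE the median was 9788 UMIs in chondrocyte-like and 4208 UMIs in haematopoietic-like cells. The part of free RNA in these Dcn levels was not tested.

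Biglycan was above the haematopoietic level in all 13 classes of both libraries, and no class was below 1450 CPM. In upper chondrocyte-like cells it stood at 4029 CPM (3929 to 4130.1) in Control and 3877 CPM (3791 to 3963) in Dach1OE. Tendon-like cells held 3819 CPM (3724 to 3916) and 5005 CPM (4858 to 5155), so the upper chondrocyte-like class led in Control and the tendon-like class in Dach1OE. The tendon-like class led in Control too at the lower resolution, with cells named one by one and in cells with only Y-linked UMIs. The dpMSC-like cells followed with 3409.8 CPM (3368 to 3452) and 3359 CPM (3293 to 3426), which sets Bgn apart from Dcn in this class. Septoclast-like cells were lowest with 1450.4 CPM (1374 to 1529.7) and 1492 CPM (1430.1 to 1557). Of the 12 steps between neighbouring classes in this order, 3 had overlapping intervals in each library.

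Asporin, the class I member without a glycosaminoglycan chain, was confined to few classes. Fibroblast-like cells held 942 CPM (905 to 979) in Control and 1104 CPM (1064 to 1145) in Dach1OE. Tendon-like cells with 423 CPM (391 to 456) and 550.2 CPM (502 to 602), and mpMSC-like cells with 401 CPM (379 to 423) and 444 CPM (419.8 to 469), came next, and these classes could not be ordered in Control. Osteoblast-like cells stood at 1.40 and 1.81 CPM, below the haematopoietic 6.40 and 9.55 CPM. Outside the skeletal classes, mural-like cells, the contractile cells around vessels, held 759 CPM (729 to 791) and 688 CPM (667 to 709), as against 2.10 and 5.02 CPM in endothelial-like cells.

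Like Bgn, fibromodulin of class II was highest in upper chondrocyte-like and tendon-like cells. It stood in upper chondrocyte-like cells at 4816 CPM (4707 to 4927) in Control and 5265 CPM (5166 to 5366) in Dach1OE, and in tendon-like cells at 4628 CPM (4523 to 4735) and 6477 CPM (6309.8 to 6648). The intervals of these classes met in Control, and the tendon-like class was higher in Dach1OE. Along the growth plate Fmod stood at 3459 CPM (3433 to 3486) and 3522 CPM (3500.2 to 3545) in chondrocyte-like cells, 2427 CPM (2394 to 2460.0) and 2304 CPM (2266 to 2342) in prehypertrophic-like cells, and 1194 CPM (1156 to 1232) and 1390.1 CPM (1361 to 1419) in hypertrophic-like cells. Proliferating chondrocyte-like cells held 3282 CPM (3231 to 3335) and 3459 CPM (3416 to 3502), and met the chondrocyte-like interval in Dach1OE. Prehypertrophic-like cells lay below these classes and hypertrophic-like cells lower still in each library. The mpMSC-like cells held 696 CPM (667 to 725) and 903 CPM (869 to 939), and osteoblast-like cells 48.8 and 44.5 CPM, below the haematopoietic 73.8 and 107 CPM.

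Lumican was highest in mpMSC-like cells, at 1137 CPM (1101 to 1175) in Control and 1052 CPM (1015 to 1091) in Dach1OE. Fibroblast-like cells with 679 CPM, osteoblast-like cells with 677 CPM and the Cdh15-led cluster with 676 CPM could not be ordered in Control, and they stood at 587, 668 and 715 CPM in Dach1OE. Lum therefore separated from Fmod in osteoblast-like cells, where Fmod was below the haematopoietic level and Lum was above it. In cartilage Lum was highest in prehypertrophic-like cells, at 276 CPM (265 to 287) and 281 CPM (268 to 295). Septoclast-like cells were lowest with 47.1 CPM (34.2 to 63.2) and 33.8 CPM, against haematopoietic levels of 20.7 and 31.5 CPM.

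Prelp, a basic class II protein that anchors basement membranes to the matrix beneath, was highest in proliferating chondrocyte-like cells at 4096 CPM (4038 to 4155) in Control and 3585 CPM (3541 to 3629) in Dach1OE. Chondrocyte-like cells held 3105 CPM (3080.4 to 3130.4) and 2753 CPM (2733 to 2772), and upper chondrocyte-like cells 2719.7 CPM (2638 to 2803) and 2177 CPM (2114 to 2242). Prehypertrophic-like cells with 1340.2 CPM (1316 to 1365) and 994 CPM (969.8 to 1019.7) and hypertrophic-like cells with 318 CPM (299 to 338) and 386 CPM (371 to 402) were well below them in both libraries. The chondrocyte-like class led in Control at the higher resolution, and the tendon-like class in Dach1OE in cells with only Y-linked UMIs. Within the chondrocyte-like class, the cluster led by Rlbp1 and Lingo1 stood above the proliferating class, at 4263 and 3670 CPM. The cluster led by Hspa1a held 2992 and 2169 CPM and that led by R3hdml 1206 and 1057 CPM. Within marrow stroma the gene separated dpMSC-like cells, at 789 CPM (769 to 809.5) and 718 CPM (687 to 749), from mpMSC-like cells, at 33.3 CPM (27.3 to 40.3) and 66.1 CPM (56.9 to 76.3). Osteoblast-like cells held 13.6 and 14.7 CPM, below the haematopoietic 76.0 and 91.2 CPM.

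Osteomodulin was highest in upper chondrocyte-like and mpMSC-like cells rather than in osteoblast-like cells. Upper chondrocyte-like cells held 404 CPM (373 to 437) in Control and 539 CPM (508 to 572) in Dach1OE, and mpMSC-like cells 356 CPM (335 to 377) and 265 CPM (246 to 285). These classes had overlapping intervals in Control and were ordered in Dach1OE. With cells named one by one the mpMSC-like class led in both libraries. In Control it also led at the lower resolution and with at least 4000 UMIs per cell. Osteoblast-like cells stood at 97.9 CPM (91.9 to 104) and 118 CPM (112 to 124), dpMSC-like cells at 55.6 CPM (50.4 to 61.2) and 35.2 CPM (28.7 to 42.7), and osteocyte-like cells at 4.10 and 7.77 CPM. The osteocyte-like level was close to the haematopoietic 4.16 and 7.25 CPM.

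Epiphycan of class III was a cartilage gene in these libraries. Chondrocyte-like cells held 1126 CPM (1111 to 1141) in Control and 1163 CPM (1150.0 to 1176) in Dach1OE, and proliferating chondrocyte-like cells 1163 CPM (1132 to 1195) and 1165 CPM (1140.3 to 1190.1). These classes could not be ordered. Prehypertrophic-like cells with 934 CPM (914 to 955) and 965 CPM (940.5 to 989.7) lay below them, and hypertrophic-like cells with 399 CPM (378 to 422) and 456 CPM (440.0 to 473) lower still. Upper chondrocyte-like cells held 348 CPM (319 to 379) and 288 CPM (265 to 312). By class, Epyc was thus lower at both ends of the growth plate, the reverse of Dcn read by class. With cells named one by one, upper chondrocyte-like cells were instead the highest class of Dach1OE, so the pattern did not hold there. Osteoblast-like cells stood at 4.21 and 5.42 CPM, below the haematopoietic 20.2 and 30.9 CPM.

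**Figure D2:**
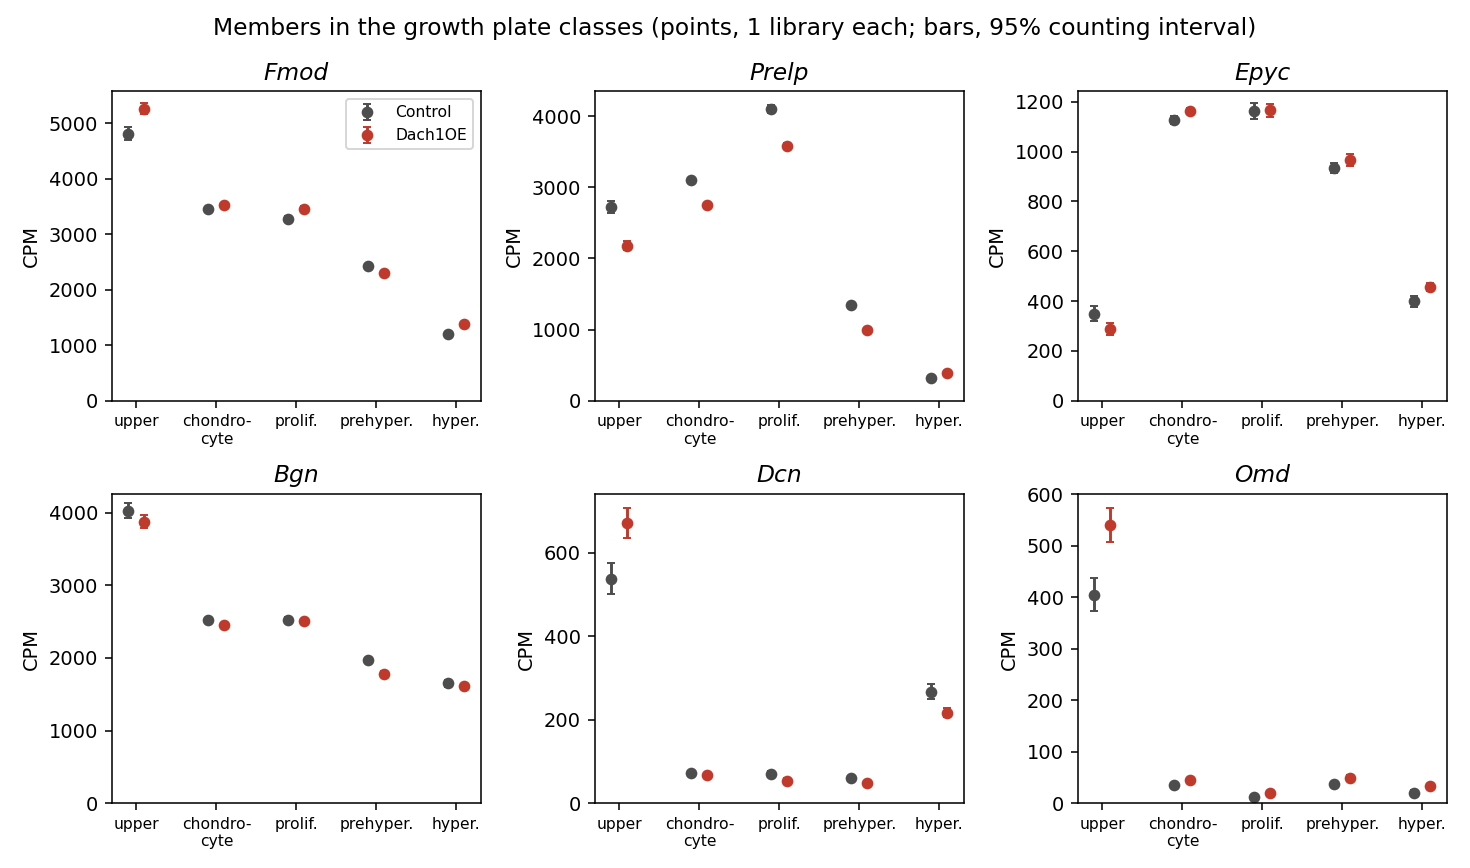
CPM of 6 genes in the 5 growth plate classes, from upper to hypertrophic chondrocyte-like cells; each point is 1 library (grey, Control; red, Dach1OE), bars are 95% counting intervals and every vertical axis starts at 0. Among these classes, Fmod, Bgn, Dcn and Omd are highest in upper chondrocyte-like cells and Epyc is lowest at both ends. Prelp is highest in the proliferating class at 4096 and 3585 CPM, and clusters within the chondrocyte-like class are not shown.

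Osteoglycin, despite its name, was at 3.51 and 3.82 CPM in osteoblast-like cells, below the haematopoietic 9.69 and 11.2 CPM. Tendon-like cells held 1145 CPM (1093 to 1199) in Control and 629 CPM (578 to 684) in Dach1OE, and dpMSC-like cells 929.5 CPM (908 to 952) and 1038 CPM (1001 to 1075). The tendon-like class led in Control and the dpMSC-like class in Dach1OE, but with at least 4000 UMIs per cell the dpMSC-like class led in both. The mpMSC-like cells held 706 CPM (677 to 736) and 619.9 CPM (591 to 649.7), which met the tendon-like interval in Dach1OE. Upper chondrocyte-like cells were the only cartilage class above 100 CPM, at 130.0 CPM (113 to 149) and 227 CPM (206 to 248).

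Podocan was the least counted member. Fibroblast-like cells held 50.9 CPM (42.7 to 60.3) in Control and 48.0 CPM (40.0 to 57.2) in Dach1OE, dpMSC-like cells 42.0 CPM (37.5 to 46.9) and 47.8 CPM (40.2 to 56.4), and tendon-like cells 27.6 and 27.4 CPM. The fibroblast-like and dpMSC-like intervals met in both libraries. Osteoblast-like cells had 2 UMIs in each library, and septoclast-like cells had 0, which allows up to 3.21 CPM in Control and 2.07 CPM in Dach1OE by a limit of 3 counts. Scp2, which shares its strand and part of its span, ran at 44.4 to 355 CPM in the 8 classes in which it was read, and how many reads were divided between them was not tested.

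Counted per cell, the same classes stood out from haematopoietic-like cells. After thinning every cell to 1000 UMIs, Dcn was seen in 87.7% of osteoblast-like cells of Control and 91.2% of those of Dach1OE, and in 3.42% and 4.19% of haematopoietic-like cells. Unthinned, these shares were 99.3% and 99.1% against 8.54% and 9.92%, at median depths of 7176 and 7408 UMIs against 4536.5 and 4208.5 UMIs. Thinned shares of Ogn were 51.3% and 58.4% in dpMSC-like cells (78.7% and 79.0% unthinned), 0.143% and 0.459% in osteoblast-like cells and 0.656% and 0.747% in haematopoietic-like cells. Osteoblast-like cells were therefore at or below the haematopoietic share for Ogn. Thinned shares of Aspn were 45.0% and 45.4% in fibroblast-like cells and 47.2% and 45.7% in mural-like cells, against 13.6% and 16.5% in mpMSC-like cells and 0.449% and 0.877% in haematopoietic-like cells. For Prelp the thinned shares were 46.7% and 42.4% in dpMSC-like cells and 94.2% and 92.9% in proliferating chondrocyte-like cells, against 4.04% and 3.67% in haematopoietic-like cells. Omd stayed a minority transcript in its highest classes, with thinned shares of 19.9% and 19.5% in upper chondrocyte-like cells and 16.6% and 15.1% in mpMSC-like cells, against 0.345% and 0.455% in haematopoietic-like cells.

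Several classes were mixtures with regard to these genes. The mpMSC-like class held cluster 14, led by Tnn, Ndnf and the member Aspn, with 266 Control and 244 Dach1OE cells. It also held cluster 4, led by Angpt4, Wif1 and Serpine2, with 702 and 578 cells. Aspn stood at 1079.7 and 1174 CPM in the Tnn cluster and at 30.3 and 20.8 CPM in the Wif1 cluster. The other members that mark this class followed the same division, with Omd at 778 and 505 CPM against 125 and 126 CPM, Ogn at 1230.5 and 988 CPM against 419.8 and 407 CPM, and Dcn at 3877 and 2995 CPM against 961 and 717 CPM. Among mpMSC-like cells thinned to 1000 UMIs, Omd and Aspn were seen together in 57 of 953 Control cells, where 21.6 would be met if each were found independently, and in 42 of 807 Dach1OE cells, where 20.1 would. Omd and Ogn were seen together in 97 Control cells, against 55.7, and in 69 Dach1OE cells, against 41.4. An excess of this kind follows from pooling clusters that differ in both genes of a pair. Whether the genes go together within a cluster was not tested. All 3 of these neighbours on chromosome 13 were thus higher in the Tnn cluster than in the Wif1 cluster.

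The dpMSC-like class divided in the opposite sense for Prelp and Omd. Its larger cluster 1, with 2067 Control and 747 Dach1OE cells, held Prelp at 977 and 897 CPM and Omd at 14.2 and 9.98 CPM. Its smaller cluster 9, led by Col8a1, Kcnk2 and Limch1 with 494 and 227 cells, held Prelp at 143 and 222 CPM and Omd at 200.4 and 110.2 CPM. Podn was almost entirely in the larger cluster, at 53.2 and 60.9 CPM against 3.58 and 14.8 CPM. Ogn was high in both, at 862 and 1059 CPM in the larger and 1163 and 1009 CPM in the smaller cluster. The smaller cluster passed the naming rule with all 10 dpMSC markers, but its 10 leading genes held 2 of the mpMSC list, Kcnk2 and Limch1, and 0 of the dpMSC list. The libraries are therefore compared below by cluster and not over the whole dpMSC-like class.

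The tendon-like class held a cluster led by Chodl, Tnmd and Scx, with 216 Control and 74 Dach1OE cells, and one led by Angptl7, Kera and Cilp2, with 102 and 115 cells. The latter held Dcn at 13106 and 8034 CPM against 2293 and 2367 CPM, Fmod at 10828 and 9499 CPM against 1928 and 2783 CPM, and Prelp at 3474 and 4140.4 CPM against 454 and 743 CPM. Only Ogn ran the other way among these 4, at 844 and 388 CPM against 1276 and 923 CPM. The share of the Kera cluster in the tendon-like class was thus larger in Dach1OE, which bears on each tendon-like ratio below.

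Between the libraries, the levels of the 10 genes within a class were mostly alike. Of 108 pairs of a gene and a class with at least 50 UMIs over both libraries, 96 were within 1.5-fold, 9 were at least 1.5-fold higher in Dach1OE and 3 at least 1.5-fold lower. Over all genes counted that often in the same 13 classes, 2.7% of the pairs were at least 1.5-fold higher and 3.78% at least 1.5-fold lower. Dcn, Bgn, Lum and Fmod were within 1.5-fold in 13 of 13 classes each, Epyc in 10 of 10 and Podn in 3 of 3. The dpMSC-like class, whose clusters are set apart below, gave 10 of these pairs and 1 of those past the fold. The tally is of classes, and clusters within a class could differ more. The shares over all genes are likewise of classes and not of clusters. Fmod had a log2 ratio of 1.17 (0.76 to 1.60) in a hypertrophic-like cluster led by Tcim and Gdf5. It had -2.01 (-2.56 to -1.48) in a fibroblast-like cluster led by Apod, and Dcn had -0.71 in the Kera cluster. The pairs past the fold came from Omd with 5 of 12, Aspn with 3 of 7, and Ogn and Prelp with 2 of 12 each. Those in classes not taken up below were Aspn in the Cdh15-led cluster, with 8.76 and 24.7 CPM from 14 and 42 UMIs, and in septoclast-like cells Aspn with 0.60 (-0.05 to 1.30), though below 0 in cells with only Xist and in cells with only Y-linked UMIs, and Omd with 0.77 (0.06 to 1.53). The spread between animals, which counting intervals do not hold, could not be measured. In haematopoietic-like cells, which should lack these genes, their log2 ratios ran from -0.38 for Podn, on 13 and 10 UMIs, to 0.80 for Omd, on 67 and 117 UMIs. Of the 10 ratios there 9 were above 0, 8 of them with intervals that left out 0, and only Podn was below. The part of such a shift in the ratios of the other classes was not tested.

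**Figure D3:**
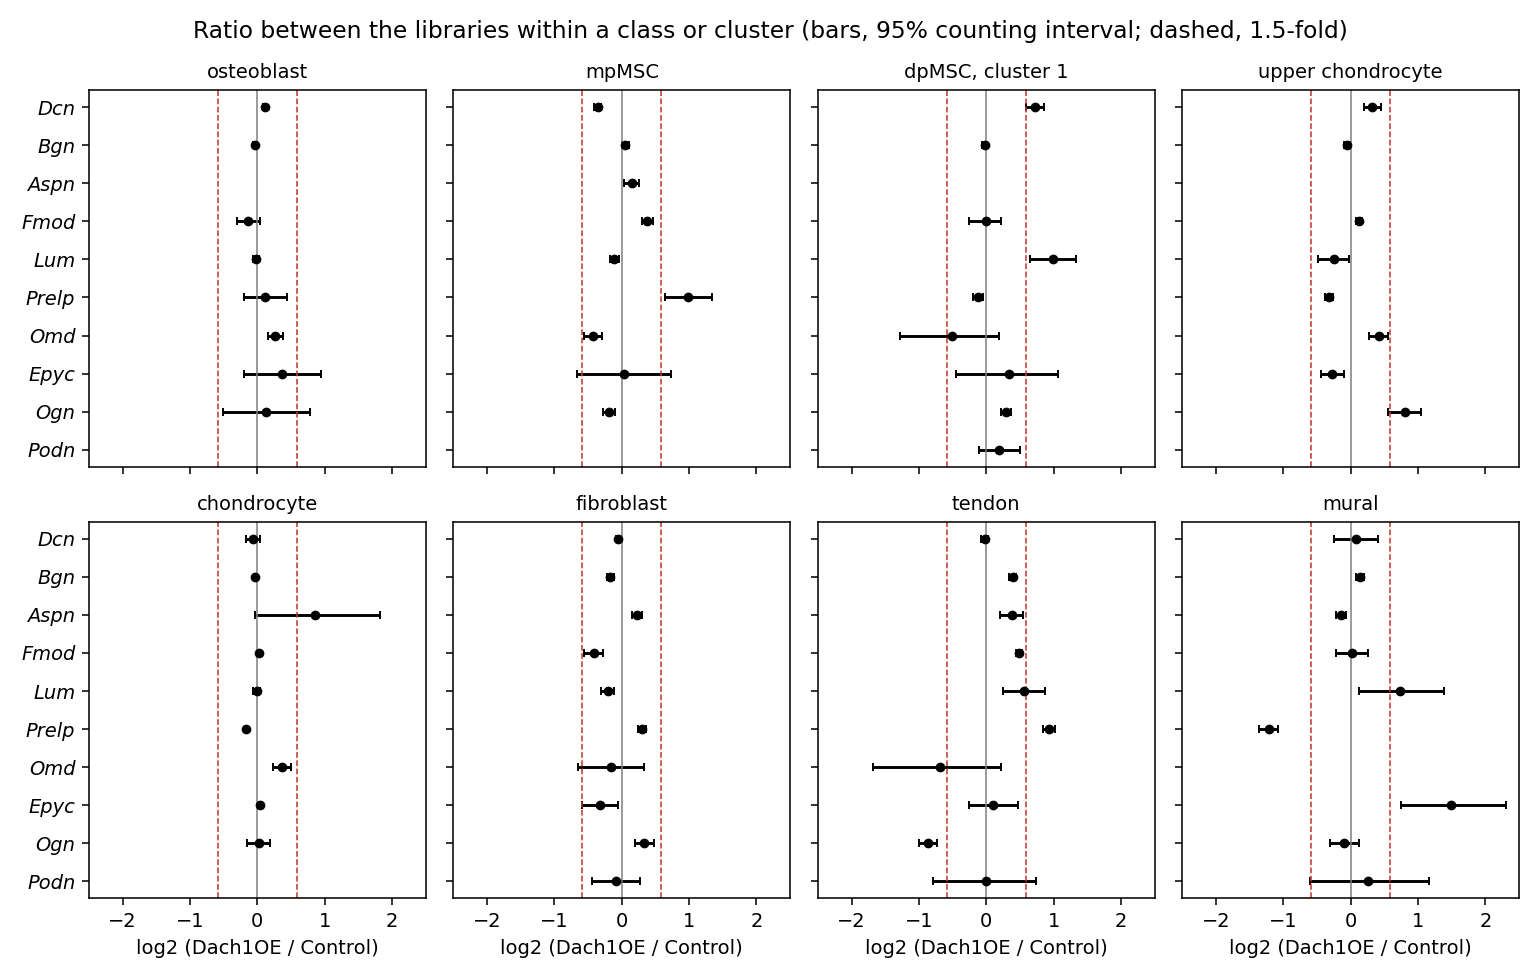
log2 ratio of CPM, Dach1OE over Control, for the 10 genes in 7 classes and in cluster 1 of the dpMSC-like cells; each name stands for the cells like that type, bars are 95% counting intervals, the dashed lines mark 1.5-fold, and genes under 50 UMIs are left out. Most points lie between the dashed lines, and those beyond them are Prelp in mpMSC, tendon and mural cells, Dcn and Lum in dpMSC cluster 1, Omd in tendon cells, Ogn in upper chondrocyte and tendon cells, Aspn in chondrocytes, and Lum and Epyc in mural cells.

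In osteoblast-like cells 0 of the 8 members with enough UMIs passed the fold in either direction, where 1.4% of all genes were higher and 3.14% lower. The log2 ratio of Dcn was 0.11 (0.09 to 0.13), that of Bgn -0.03 and that of Lum -0.02. Omd, at 97.9 and 118 CPM, had the ratio of 0.27 (0.15 to 0.38). In fibroblast-like cells, too, 0 of 10 members passed, where 2.82% of all genes were higher and 4.24% lower, and Fmod had the farthest ratio with 384 against 288 CPM, or -0.42 (-0.56 to -0.28).

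In mpMSC-like cells 1 of 9 members was past the fold, Prelp in the higher direction, where 2.41% of all genes were higher and 2.67% lower. Prelp had 107 UMIs in Control and 186 in Dach1OE, a log2 ratio of 0.99 (0.64 to 1.34), and with cells named one by one from their markers the ratio was 0.36, inside the fold. That difference lay in the Tnn cluster, with 33.5 CPM in Control and 131 CPM in Dach1OE, and not in the Wif1 cluster, with 33.2 and 28.6 CPM. All of these levels except that of the Tnn cluster in Dach1OE were below the Prelp level of haematopoietic-like cells. Omd was lower in Dach1OE by less than the fold, with a log2 ratio of -0.42 (-0.56 to -0.29), Dcn had -0.36 (-0.41 to -0.30) and Fmod 0.38 (0.29 to 0.46). For Omd the ratio was -0.62 (-0.78 to -0.46) in the Tnn cluster and 0.01 in the Wif1 cluster.

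Over the whole dpMSC-like class 1 of 10 members was past the fold, Omd in the lower direction, where 2.01% of all genes were higher and 3.06% lower, but most of its UMIs came from cluster 9, and no direction is drawn from the class. In cluster 1 Prelp had a log2 ratio of -0.12, Ogn 0.30 and Bgn -0.03, and Omd, on 82 and 21 UMIs, -0.51 (-1.28 to 0.19). In cluster 9 Omd had 336 and 82 UMIs, a ratio of -0.86 (-1.23 to -0.51). The clusters gave opposite values for Dcn, with 219 and 362 CPM in cluster 1, or 0.73 (0.60 to 0.86), and 743 and 369.6 CPM in cluster 9, or -1.01 (-1.20 to -0.82). Lum likewise had 29.9 and 59.4 CPM in cluster 1 and 274 and 126 CPM in cluster 9. Cluster 9 was also past the fold for Aspn with -0.67 (-1.24 to -0.14), Fmod with -0.61 (-1.05 to -0.19) and Prelp with 0.63 (0.34 to 0.92). Bgn with 0.08 and Ogn with -0.21 were inside the fold there. The share of all genes past the fold was not computed for single clusters. Whether these genes differ from other genes of cluster 9 was therefore not tested.

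In the growth plate Omd stood higher in Dach1OE in each of the 5 classes. Chondrocyte-like cells held 35.6 and 45.8 CPM, a log2 ratio of 0.36 (0.23 to 0.50), and upper chondrocyte-like cells had 0.41 (0.27 to 0.56). Proliferating chondrocyte-like cells had 12.1 and 19.8 CPM, or 0.71 (0.26 to 1.19), prehypertrophic-like cells 37.6 and 48.9 CPM, or 0.38 (0.15 to 0.61), and hypertrophic-like cells 20.1 and 32.4 CPM, or 0.69. The proliferating and hypertrophic-like classes were past the fold. The ratio was above 0 in cells with only Xist and in cells with only Y-linked UMIs in all 5 classes, and lowest, at 0.08, in hypertrophic-like cells with Y-linked UMIs. Haematopoietic-like cells, with 4.16 and 7.25 CPM, had a ratio of 0.80 (0.36 to 1.26), so Omd was higher in Dach1OE there as well. The part of free RNA in these ratios was not tested. Prelp was lower in Dach1OE in 4 of the 5 classes, with -0.32 (-0.38 to -0.26) in upper chondrocyte-like, -0.17 in chondrocyte-like, -0.19 in proliferating and -0.43 (-0.48 to -0.39) in prehypertrophic-like cells, and 0.28 in hypertrophic-like cells. The chondrocyte-like class is 3 clusters, of which the cluster led by Rlbp1 and Lingo1 held 727 cells in Control and 1564 in Dach1OE, that led by Hspa1a 830 and 796, and that led by R3hdml 314 and 390. In that order the Prelp ratios were -0.22, -0.46 and -0.19 and the Omd ratios 0.47, 0.37 and 0.64, so each cluster lay farther from 0 than its class. In chondrocyte-like cells the Prelp ratio was -0.37 in cells with only Xist and -0.00 in cells with only Y-linked UMIs.

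Of the 8 members counted in upper chondrocyte-like cells 1 was past the fold, Ogn in the higher direction, where 3.9% of all genes were higher and 3.31% lower. Its ratio was 0.80 (0.56 to 1.05), with 1.32 in cells with only Xist and 0.21 in cells with only Y-linked UMIs. With cells named one by one from their markers, which kept 47.5% of the class, it was -0.016, so neither the call nor the direction held. In chondrocyte-like cells 1 of 9 was past the fold, Aspn in the higher direction, where 1.17% of all genes were higher and 3.75% lower. It rested on 15 and 39 UMIs, or 0.786 and 1.43 CPM, below the haematopoietic 6.40 and 9.55 CPM, and the ratio was 0.10 in cells with only Y-linked UMIs.

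Tendon-like cells, with 318 Control and 189 Dach1OE cells, held the most members past the fold of the 13 classes, with 1 of 10 higher and 2 lower, where 6.38% of all genes were higher and 8.63% lower. Prelp had 1370.0 CPM (1313 to 1429) in Control and 2612 CPM (2506 to 2721) in Dach1OE, a log2 ratio of 0.93 (0.85 to 1.02). Ogn, with the levels given above, had -0.86, and Omd, on 41 and 14 UMIs, -0.69 (-1.68 to 0.22). Within the Chodl cluster the Prelp ratio was 0.71 and within the Kera cluster 0.25, and those of Ogn were -0.47 and -1.12. The Ogn ratio of the class was -0.74 in cells with only Xist and -0.79 in cells with only Y-linked UMIs. Fmod with 0.48 (0.43 to 0.54), Bgn with 0.39 (0.33 to 0.45) and Aspn with 0.38 were higher by less than the fold in the class. By cluster, Fmod had 0.53 in the Chodl and -0.19 (-0.25 to -0.13) in the Kera cluster, Bgn -0.03 and 0.44, Aspn 0.72 and 0.38, and Dcn 0.05 and -0.71 (-0.76 to -0.65). With clusters weighted equally the Prelp ratio of the class was 0.31, inside the fold. The Omd ratio ran from -1.16 to -0.046 over the 14 alternatives, the latter with cells named one by one. The 13 haematopoietic markers summed to 417 and 356 CPM in this class, as against 19.1 to 126 CPM in the other 12 classes, and their part in these ratios was not tested.

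Pooled over the 6 stromal and bone classes (osteoblast-, osteocyte-, mpMSC-, dpMSC- and septoclast-like cells and the Cdh15-led cluster), 3 of the 10 members were at least 1.5-fold lower in Dach1OE and 0 higher, where 12.2% of all genes were lower and 1.73% higher. Prelp stood at 257 CPM (250.3 to 263) in Control and 107 CPM (103 to 111) in Dach1OE, a log2 ratio of -1.27 (-1.33 to -1.20). Ogn stood at 389 CPM (381 to 397) and 206 CPM (201 to 212), or -0.91 (-0.96 to -0.86), and Podn at 13.3 CPM (11.9 to 14.8) and 5.96 CPM, or -1.16 (-1.45 to -0.87). All 3 were higher in cluster 1 of the dpMSC-like cells than in the other 5 classes of the pool. In Dach1OE this cluster made up 16.2% of the pooled cells, as against 36.7% in Control, and the osteoblast-like class 42.5%, as against 24.9%. The median log2 ratio of all genes tested in the pool was -0.20.

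Setting the class make-up of the Dach1OE library beside the Control levels gave nearly the whole pooled ratio of these genes. For Ogn the make-up gave -0.93 and the levels within classes 0.02, for Prelp -1.22 and -0.04, and for Podn -1.31 and 0.15. With the 10 clusters in place of the 6 classes, an alternative added after the data were seen, the make-up gave -0.91 for Ogn, -1.27 for Prelp and -1.36 for Podn. For Dcn, high in osteoblast-like cells, the pooled ratio of 0.39 (0.37 to 0.40) was made of 0.32 from the make-up and 0.07 within classes, and for Lum 0.18 was made of 0.22 and -0.04. Aspn and Fmod had make-up terms of -0.26 and -0.17 and terms within classes of 0.18 and 0.13. The term of 0.52 within classes for Epyc belongs to pooled levels of 6.54 and 8.02 CPM, below those of haematopoietic-like cells. The make-up of a dissociated sample depends on which cells were released, and fewer cells of a type in the bone cannot be told apart from fewer of them recovered.

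**Figure D4:**
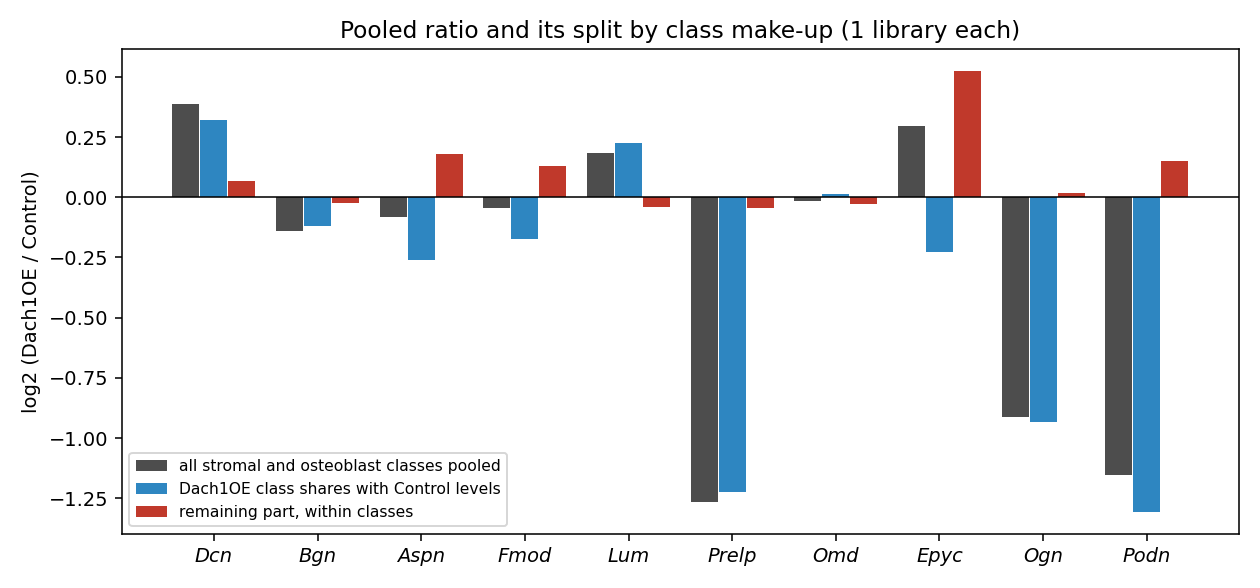
Pooled log2 ratio of CPM, Dach1OE over Control, for each gene (grey), the ratio obtained by weighting Control levels with the UMI shares of the classes in Dach1OE (blue), and the remaining term within classes (red); values are of 1 library each and carry no error bar. For Prelp, Ogn and Podn the grey and blue bars are of nearly equal length and the red bars are short.

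Vessels held a pattern of their own for Prelp. In mural-like cells it stood at 275 CPM (257 to 294) in Control and 118 CPM (109 to 127) in Dach1OE, a log2 ratio of -1.22 (-1.37 to -1.08). Both mural-like clusters had it lower, with 253 and 144 CPM in the cluster led by Pln and Acta2 and 299 and 93.6 CPM in the cluster led by Rgs5 and Higd1b. The latter Dach1OE value lay near the 91.2 CPM of haematopoietic-like cells. The 8 endothelial markers summed to 380 CPM in mural-like cells of Control and 526 CPM in those of Dach1OE, and their part in the Prelp ratio was not tested. The mural ratio was -0.64 in cells with only Xist and -1.79 in cells with only Y-linked UMIs. With at least 4000 UMIs per cell it was -0.39, inside the fold. Thinned to 1000 UMIs, the share of mural-like cells with Prelp was 19.4% in Control and 10.2% in Dach1OE.

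Endothelial-like cells are given by cluster, for 4 of their clusters, and no ratio is given for the class, since another cluster is not reported here. The cluster led by Scgb3a1 and Dach1 held 131 of 9113 endothelial-like cells in Control and 5327 of 9567 in Dach1OE, and Prelp stood there at 83.1 and 151 CPM, with 25 UMIs in Control. The cluster led by Ramp3 stood at 94.0 and 88.4 CPM, a log2 ratio of -0.09. That led by Gja5 and Sema3g was lowest of the 4 at 32.2 and 42.5 CPM. Of these 4 clusters only that led by C1qtnf9 and Chp2 was at least 1.5-fold lower in Dach1OE, with 327 and 198 CPM, or -0.72 (-0.95 to -0.50).

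**Figure D5:**
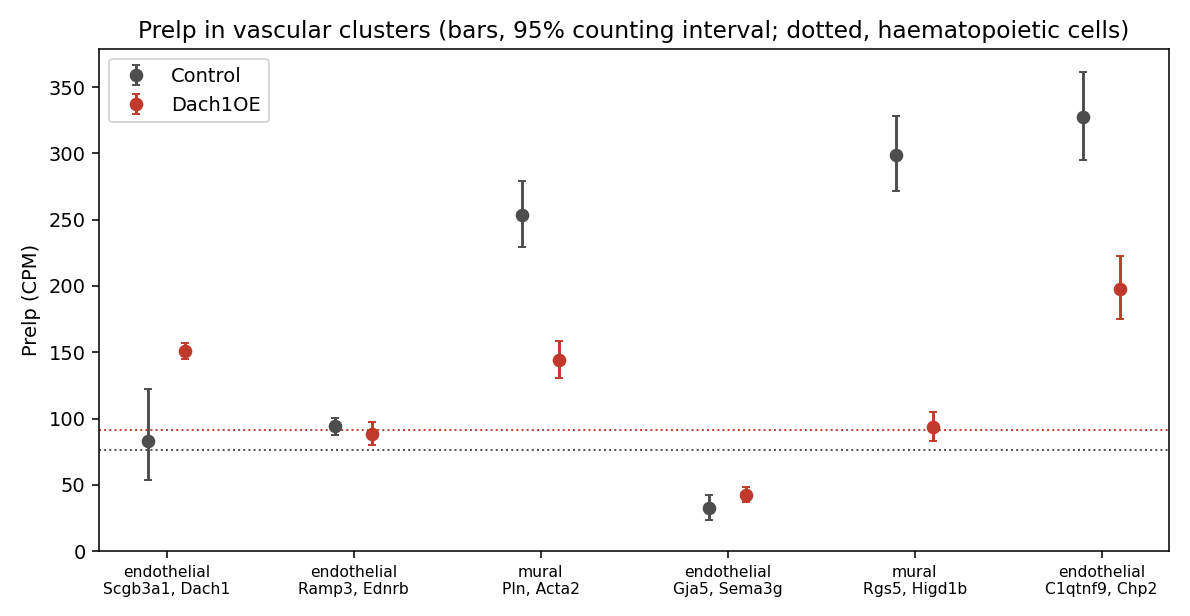
CPM of Prelp in 4 endothelial-like and 2 mural-like clusters, named by leading genes; each point is 1 library (grey, Control; red, Dach1OE), bars are 95% counting intervals and dotted lines give the level in haematopoietic-like cells of each library. Prelp is at 94.0 and 88.4 CPM in the Ramp3 cluster of Control and Dach1OE and is lower in Dach1OE in both mural clusters and the C1qtnf9 cluster.

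Of 9 members counted in mural-like cells, 2 were at least 1.5-fold higher and 1 lower, where 4.64% of all genes were higher and 3.24% lower. The lower one was Prelp. The higher ones, Epyc with 5.74 and 16.1 CPM and Lum with 9.25 and 15.4 CPM, stayed below the haematopoietic 30.9 and 31.5 CPM of Dach1OE. The direction of Lum did not hold, with log2 ratios of -0.21 with mitochondrial UMIs under 10% and -0.20 with at least 4000 UMIs per cell. Col2a1, the main cartilage collagen, stood at 825 and 1487 CPM in the same cells, and its part in the Epyc ratio was not tested. Aspn in mural-like cells was at 705 and 535 CPM in the Pln cluster and at 819.7 and 832 CPM in the Rgs5 cluster. Bgn stood at 428 and 540.0 CPM in the Pln cluster and at 1511 and 1506 CPM in the Rgs5 cluster.

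The genes that make, modify and partner these proteoglycans were read in osteoblast-like cells from lists chosen with earlier results known, beside 1.4% of all genes higher and 3.14% lower there. Of 8 other leucine-rich proteoglycan genes 3 had enough UMIs and 0 passed the fold, with Chad, which encodes chondroadherin, at 28.7 and 36.8 CPM. Of 21 genes for the linker and for chondroitin or dermatan sulphate chains 20 were counted, with 0 higher and 1 lower, Chsy3 at a log2 ratio of -0.70 (-1.29 to -0.11), and a median of 0.02. Of 9 genes for keratan sulphate 6 were counted, with 0 higher and 1 lower, the sulphotransferase gene Chst2 at 14.4 and 9.45 CPM, or -0.61 (-0.96 to -0.26), and a median of -0.32. B4galt4 with -0.46 and B3gnt7 with -0.45 were the next genes of that list. Of 14 fibrillar collagens and partners 12 were counted and 0 passed, with a median of -0.00 and Col6a3 at 0.52 and Col6a2 at -0.39.

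Of 12 genes for proteases that cut these proteins and their helpers 9 were counted in osteoblast-like cells and 0 passed, with Adamts1 at 0.46 and Adamts4 at -0.28. Of 11 growth factors and receptors that bind them 9 were counted, with 1 higher, Tgfb2 at 0.62, and 0 lower, against the same 1.4% and 3.14% of all genes, beside Egfr at 0.55 and Tgfb3 at 0.41. Of the 8 endothelial markers 8 were counted and 0 passed, and of the 13 haematopoietic markers 3 were counted and 1 passed, the haemoglobin gene Hba-a1 at 0.88. In the pool of 6 classes the keratan sulphate list had 1 of 8 higher, Chst1 at 1.18, and 0 lower. The chondroitin and dermatan sulphate list had 1 of 21 higher, Chst13 at 0.83, and 4 lower, where 1.73% and 12.2% of all genes were, among them Chst3 at -1.63 and Dse, the epimerase that makes dermatan sulphate, at -0.72. Tendon-like cells had 5 of 14 collagens higher and 0 lower, where 6.38% and 8.63% of all genes were, led by Col5a1 at 1.26, Col14a1 at 1.04 and Col3a1 at 0.97, beside the Prelp and Fmod values above.

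Each member had genes of much the same pattern over the 26 points given by 13 classes in 2 libraries, read as Pearson's r of log2(CPM + 1) over 5673 genes that reached 50 CPM, as a description with points that share a library. Epyc was closest to the cartilage genes Col9a1, Scrg1 and Matn3, each with r of 0.99, and Prelp to Angptl2, Vit and Tpst1 with 0.95. Fmod was closest to 1500015O10Rik with 0.94, Aspn to the collagen gene Col3a1 with 0.95, Ogn to Fbxo11 with 0.96 and to Igf1 with 0.94, and Podn to Ltbp2 with 0.91. Dcn was closest to the collagen gene Col5a1 with 0.89. Lower best values were found for Omd, with Col25a1 at 0.74, Lum, with Slc44a1 at 0.74, and Bgn, with Lpar1 at 0.71.

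Among the members themselves, the cartilage genes were closest to each other, with r of 0.85 for Epyc and Fmod, 0.84 for Epyc and Prelp and 0.78 for Fmod and Prelp, over the same 26 points. Of these, Fmod and Prelp are neighbours on chromosome 1 and Epyc lies on chromosome 10. On chromosome 13, Aspn and Ogn had 0.76, Ogn and Omd 0.31, and Aspn and Omd 0.06, so the pair with the smallest gap to each other was not the most alike. On chromosome 10, Dcn and Lum had 0.54, Lum and Epyc -0.13 and Dcn and Epyc -0.54.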

How the data were processed

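Non-haematopoietic cells of femur and tibia were measured in 1 Control and 1 Dach1OE library. The deposited tables hold counts of reads and UMIs per cell and gene, which the authors made with the BD Rhapsody WTA Analysis Pipeline on GRCm38 with GENCODE vM19, intronic reads included and with no normalization. The header's pipeline version differs from that in the methods, and the use of strand is not given in the sources used here. Error-corrected UMIs were used throughout and raw UMIs as an alternative. Kept cells had medians of 3793.5 (Control) and 4055 (Dach1OE) UMIs.

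Cells with 500 to 6000 genes and under 25% mitochondrial UMIs were kept, and clustered with scanpy 1.11.5 (2000 variable genes, 30 components, 20 neighbours, resolution 1, Leiden) under Python 3.11.15, leaving out the 10 genes and 97 cell cycle genes. A cluster was named from listed markers at 1.5-fold and in 25% of cells, with at least 3 of them needed for a type. The type whose passing markers had the largest summed log2 fold gave the name. Details of that rule were settled after the clusters were seen. No cell annotation was used, so the names were rebuilt here. Scrublet marked 6.53% and 6.60% of cells as doublets. They stayed in unless a cluster was over 50% doublets, and leaving them all out was an alternative.

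UMIs were summed per library and class. Exact Poisson intervals (levels) and exact conditional binomial intervals (ratios) cover counting error at 95% only. No p-value was computed, and with 1 library per group a gene counted as past the fold at 1.5-fold with at least 50 UMIs over both libraries. The computation of ratios and intervals was tested on Poisson counts drawn from class sums with known fold changes. Those counts follow the counting model of the intervals and hold no spread between cells, animals or libraries. They therefore test the computation and not the calls made here. Named were all 10 genes in every class, the 3 genes closest to each in pattern (of which the text gives 1 to 3), and up to 4 genes of each list with the farthest ratios in osteoblast-like cells. Clusters within classes, Col2a1 in mural-like cells, and list genes named in the pool and in tendon-like cells were named after their values were seen. The 10 genes and the lists were chosen with earlier results of these data known. Alternatives changed the filters, the clustering, the doublets, the cells by Xist or 4 Y-linked genes, the weights and the fold. An endothelial-like cluster is not reported here.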

Additional observations from a re-analysis of the deposited data

Results flagged for a closer look

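Each library pools male and female animals, and cells were set apart by Xist alone or by Y-linked UMIs alone, which left 19381 and 13289 cells. The 7 pairs of values that follow had opposite signs with counting intervals that left out 0 in both sets of cells. Only members with at least 50 UMIs in each set were searched, in the classes counted for the fold. The share of all genes with such opposite values was not computed, so the count is not set against one. With a pair of mice pooled per library, sex and animal cannot be told apart, and the differences between the sets were not tested. All values are log2 ratios, Dach1OE over Control.

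Dcn, the decorin gene, gave 3 of them. In osteoblast-like cells its ratio was 0.20 in cells with Xist and -0.074 in cells with Y-linked UMIs. In chondrocyte-like cells it was -0.43 and 0.53, where the level of the class was not above that of haematopoietic-like cells. In tendon-like cells it was -0.21 and 0.50.

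The fibromodulin gene Fmod had ratios of 0.30 and -0.13 in upper chondrocyte-like cells and of -0.066 and 0.093 in chondrocyte-like cells. Bgn, which encodes biglycan, had 0.073 and -0.16 in upper chondrocyte-like cells, and Aspn, which encodes asporin, had 0.30 and -0.43 in mpMSC-like cells. Of the 7 pairs, 4 involved cartilage classes, of which only upper chondrocyte-like and chondrocyte-like cells were searched.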

How the results depend on the processing

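The count of members past the fold was 3 in the pool of 6 classes, 0 in osteoblast-like and fibroblast-like cells, 1 in mpMSC-, dpMSC-, upper chondrocyte- and chondrocyte-like cells and 3 in tendon- and mural-like cells. With mitochondrial UMIs under 10% it was 2 in mpMSC-like and 1 in mural-like cells, and with at least 4000 UMIs per cell 2 in mpMSC-, 2 in dpMSC- and 0 in chondrocyte-like cells. Without Scrublet doublets it was 2 in fibroblast-like cells. The lower resolution gave 2 in dpMSC- and 0 in chondrocyte-like cells, the higher resolution 0 in chondrocyte-like cells, and keeping the members among the variable genes 0 in dpMSC-like cells. Naming cells one by one from markers gave 0 in mpMSC-, 4 in dpMSC-, 0 in upper chondrocyte- and 0 in chondrocyte-like cells. Cells with only Xist gave 1 in osteoblast-, 2 in upper chondrocyte-, 0 in chondrocyte-, 3 in fibroblast- and 5 in tendon-like cells, and cells with only Y-linked UMIs 3 in mpMSC-, 0 in upper chondrocyte-, 0 in chondrocyte-, 1 in fibroblast- and 1 in mural-like cells. Equal weights for clusters gave 1 in the pool, Epyc at 0.85 and none of Prelp, Ogn and Podn, and 2 in osteoblast-, dpMSC- and fibroblast-like cells each. A 2-fold limit gave 0 in mpMSC-, dpMSC-, upper chondrocyte-, chondrocyte- and tendon-like cells, a minimum of 10 UMIs gave 2 in upper chondrocyte-like cells, and a minimum of 200 UMIs 0 in chondrocyte- and 1 in mural-like cells. Among the members of the classes and the pool counted above, ratios past the fold that changed sign were Lum in mural-like cells, at -0.21 with mitochondrial UMIs under 10% and -0.20 with at least 4000 UMIs, Omd in dpMSC-like cells, at 0.035 with cells named one by one and 0.43 in cells with Y-linked UMIs, and Ogn in upper chondrocyte-like cells, at -0.016 with cells named one by one. The cause was not tested.

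The class with the highest level was the same for 14 to 20 of the 20 pairs of a gene and a library under each of 12 alternatives. The value of 20 came only from leaving out clusters mostly of 1 library. That alternative took out endothelial-like cells alone, so it could not change the order of these classes. Of the 30 changes, 10 were between fibroblast-, dpMSC- and tendon-like cells for Podn, and most others exchanged upper chondrocyte- with tendon- or mpMSC-like cells for Bgn, Fmod and Omd, or cartilage classes for Epyc and Prelp. dpMSC-like counts above span clusters that differ in leading genes.

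Over the 14 alternatives, Ogn in tendon-like cells stayed between -0.87 and -0.69 and Epyc in mural-like cells between 1.28 and 2.69. The pooled ratios ran from -1.54 to -0.08 for Prelp, -1.23 to -0.12 for Ogn and -1.70 to -0.21 for Podn, each past the fold in 13 of 14. Among the 14, leaving out clusters mostly of 1 library took out no cell of these classes, so it could not move any of these ratios. Prelp in mural-like cells ran from -1.83 to -0.39 and in tendon-like cells from 0.31 to 1.84. Of the 83 ratios of members in the pool and the 8 classes counted above, 30 in cells with only Xist and 22 in cells with only Y-linked UMIs stayed inside the counting interval of the main value, as against 82 with raw UMIs. No paired analysis was possible because each group had 1 library, and for the same reason no library could be left out.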

Other observations

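Prelp was highest among vascular cells in a small cluster led by Ccl21a and Lyve1, with 89 Control and 34 Dach1OE cells, where it stood at 1709 and 1899 CPM. Fibroblast-like cells also held more than 1 pattern. Ogn stood at 1485 CPM in Control and 1476 CPM in Dach1OE in the cluster led by Apod, with 81 and 105 cells, against 190.1 and 235 CPM in the cluster led by Clec3b, Mfap5 and Dpt. In the same Apod cluster Fmod had 123 UMIs in Control and 40 in Dach1OE, or 505 and 125 CPM. Aspn was at 1135 and 1316 CPM in the Clec3b cluster and at 109.8 and 76.9 CPM in a cluster led by Prg4, the lubricin gene, and Htra4.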
